A study of Mus musculus with 2 samples.

Results

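Collagen VI is the subject here, through the 3 genes that encode its classical chains, Col6a1, Col6a2 and Col6a3, which are 3 of the 32285 genes in the deposited matrices. They were selected by symbol, and they were proposed with their levels by cell type and their shift between the libraries in mesenchymal cells already known. Those values are therefore given as a description, with no test. Liver non-parenchymal cells, which are the liver's cells other than hepatocytes, had been profiled by droplet single-cell RNA sequencing of 3′ tags. One library came from Mfap2+/+ (wild-type) mice and 1 from Mfap2-/- (knockout) mice, and both groups had received intraperitoneal CCl4, a hepatotoxin that scars the liver, for 8 weeks. Mfap2 encodes a microfibril glycoprotein. The labels give neither the mice's age nor how many animals went into each library, and no untreated liver was compared.

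The α1, α2 and α3 chains wind into a heterotrimer inside the cell. It pairs into dimers and tetramers before secretion, and outside the cell these join end to end into beaded microfilaments that link cells and basement membranes to the surrounding matrix. The α4, α5 and α6 chains can take the place of α3. In scarred liver, collagen VI is made mainly by stellate cells and fibroblasts, and the cleaved carboxy-terminal end of α3, endotrophin, is known as a soluble signal.

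On GRCm38, Col6a1 (ENSMUSG00000001119) spans chr10:76708792-76726168 and Col6a2 (ENSMUSG00000020241) spans chr10:76595762-76623630, both on the reverse strand. The gap between them is 85.2 kb and holds 1 annotated gene, Gm35608. Col6a3 (ENSMUSG00000048126) lies on the reverse strand of another chromosome, at chr1:90765923-90843971, and at 78.0 kb it is longer than Col6a1 (17.4 kb) or Col6a2 (27.9 kb). None of the 3 overlaps another gene that is counted in the matrices.

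The 250 bases before each annotated start (RefSeq, GRCm38.p6, reverse strand) are shown because the neighbours on chromosome 10 shifted one way and Col6a3 the other. Capitals mark every match, on either strand, to the TATA box as TATAAA, the box known as CCAAT, the GC box as GGGCGG, the AP-1 motif as TGANTCA, or to the pyrimidine-rich motif CCCTCCC.
Col6a1, chr10:76726045-76726294: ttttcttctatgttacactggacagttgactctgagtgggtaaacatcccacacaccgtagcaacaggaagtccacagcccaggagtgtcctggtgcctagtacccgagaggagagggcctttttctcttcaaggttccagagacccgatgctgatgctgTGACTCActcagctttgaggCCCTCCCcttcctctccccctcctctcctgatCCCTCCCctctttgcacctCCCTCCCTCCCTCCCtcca
Col6a2, chr10:76623631-76623880: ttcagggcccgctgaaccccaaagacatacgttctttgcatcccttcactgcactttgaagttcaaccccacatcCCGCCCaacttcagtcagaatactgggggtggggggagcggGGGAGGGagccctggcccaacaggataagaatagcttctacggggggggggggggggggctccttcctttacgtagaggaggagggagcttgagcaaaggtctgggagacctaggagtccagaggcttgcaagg
Col6a3, chr1:90843972-90844221: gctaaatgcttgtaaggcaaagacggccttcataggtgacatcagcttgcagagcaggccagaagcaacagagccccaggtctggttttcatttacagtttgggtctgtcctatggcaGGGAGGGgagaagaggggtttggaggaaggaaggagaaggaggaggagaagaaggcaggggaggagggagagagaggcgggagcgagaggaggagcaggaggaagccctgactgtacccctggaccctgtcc
CCCTCCC occurred in all 3 windows, with 5 matches before Col6a1, partly overlapping, and 1 each before Col6a2 and Col6a3. It was found in 19.7% of 32817 windows of this length. The AP-1 letters were found only before Col6a1 (6.75% of all windows) and the GC box only before Col6a2 (32.7%). TATAAA (12.4% of windows) and CCAAT (33.8%) matched none of the 3. The Col6a1 window ends 124 bases inside the gene as GENCODE draws it, and all its marked matches lie in that part. The Col6a2 and Col6a3 windows end at the GENCODE gene start, so the windows are not alike in position. For Col6a2, which has 2 listed starts, the window used is the one at the annotated gene start.

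Sequencing depth is counted in UMIs (unique molecular identifiers, tags that mark single RNA molecules). There were 82499307 UMIs over 11783 wild-type barcodes, and 118226367 over 12872 knockout barcodes. Median depth was 4685 and 6511 UMIs per barcode. The libraries shared 40 barcode sequences (0.339% and 0.311% of their barcodes), of which 1 in each library belonged to a gated mesenchymal cell. With 1 library per genotype there is no replicate check, and genotype, animal and library preparation cannot be told apart. Intervals are at 95%. Those of levels, ratios and chain shares cover the counting error of UMIs only, without the spread between animals or cells. Those of shares of cells treat the cells of 1 library as independent draws, and such cells are not replicates.

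Cells were assigned to 14 classes by panels of marker genes that held no collagen. A cell joined a class when at least 3 of its markers had a UMI and the share of markers found was at least 1.5 times that of the next class. The mesenchymal gate took 166 wild-type and 146 knockout cells, 1.61% and 1.28% of the cells kept. They carried a median of 14 of the 16 mesenchymal markers, which included the stellate genes Lrat, Reln and Colec11. Of these cells, 1 wild-type and 4 knockout cells sat at the limit of 3 markers. Within the gate, 159 wild-type and 139 knockout cells scored highest for stellate markers. Lrat, Reln, Colec11, Ecm1, Steap4, Ngfr and Tcf21 are in both the gate panel and the stellate panel. The portal fibroblast and smooth muscle panels share no gene with the gate. The gate thus favoured stellate cells, and the values below are mainly those of stellate-like cells. The portal fibroblast score led in 4 and 2 cells, and the smooth muscle score in 0 and 3. These subsets are ranges of a score, with 1 stellate cell at the cut in each library. The summed CPM of the 16 gate markers was 10674 (wild type) and 7680 (knockout). The summed CPM of the 10 macrophage markers in the gated cells was 828 and 751 (per-cell range 0 to 3788 and 0 to 3231), with Cd163 at 0 in the wild type. That of the 12 endothelial markers, all detected, was 595 and 612, with per-cell ranges of 0 to 3049 and 0 to 2328. Other lists differed more between the libraries. The summed CPM of the monocyte markers was 1065 and 678, and that of the neutrophil markers 970 and 702. For the B cell markers it was 113 and 223, and for the hepatocyte markers 121 and 240. All 10 markers of each of these 4 lists were detected in both libraries. The part of these other markers in the results was not tested. As a check of the labels, Mfap2 had 109 UMIs in 53 of the wild-type cells and 1 UMI in the knockout cells.

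Collagen VI transcripts were concentrated in mesenchymal cells in both libraries. Of each chain's UMIs in all cells kept, the gate held 52.0 to 56.2% (wild type) and 48.3 to 52.6% (knockout). With cells of the mesenchymal Leiden cluster (described below) that entered no class, these became 86.2 to 87.7% and 77.8 to 78.4%. The rest lay in other cells. Levels are counts per 1000000 UMIs of the class (CPM), given for the wild type first and the knockout second. Col6a1, the α1 chain, stood at 517 CPM (485 to 551, 974 UMIs) in wild-type and 348 CPM (323 to 376, 686 UMIs) in knockout mesenchymal cells. Col6a2, the α2 chain, stood at 238 CPM (216 to 261, 448 UMIs) and 176 CPM (158 to 196, 347 UMIs). Col6a3, the α3 chain, stood at 406 CPM (378 to 436, 764 UMIs) and 558 CPM (526 to 592, 1099 UMIs). Col6a1 and Col6a2 were lower in the knockout library, and Col6a3 was higher.

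In the other gated classes together (6620 wild-type and 7332 knockout cells) the chains were near their level in B cells, which should lack them and stand for free RNA in the suspension. Col6a1 stood there at 3.30 and 2.91 CPM, Col6a2 at 1.43 and 1.54 CPM, and Col6a3 at 3.09 and 4.54 CPM. The mesenchymal level was 131 to 167 times as high in wild-type cells and 114 to 123 times as high in knockout cells, depending on the chain. B cells themselves had Col6a1 at 5.09 CPM (3.06 to 7.94) and 3.04 CPM (1.97 to 4.49). Macrophages had Col6a1 at 3.49 and 3.01 CPM, and neutrophils at 2.84 and 4.36 CPM. These intervals overlapped with those of B cells, so the order of the leukocytes was not resolved. Cholangiocyte-gated cells had 0 Col6a2 UMIs in the wild type, which allows up to 2.26 CPM, and 6 in the knockout (1.84 to 10.9 CPM). Hepatocyte-gated cells were few (35 and 77) and held 4 Col6a3 UMIs, all in the knockout.

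**Figure D1:**
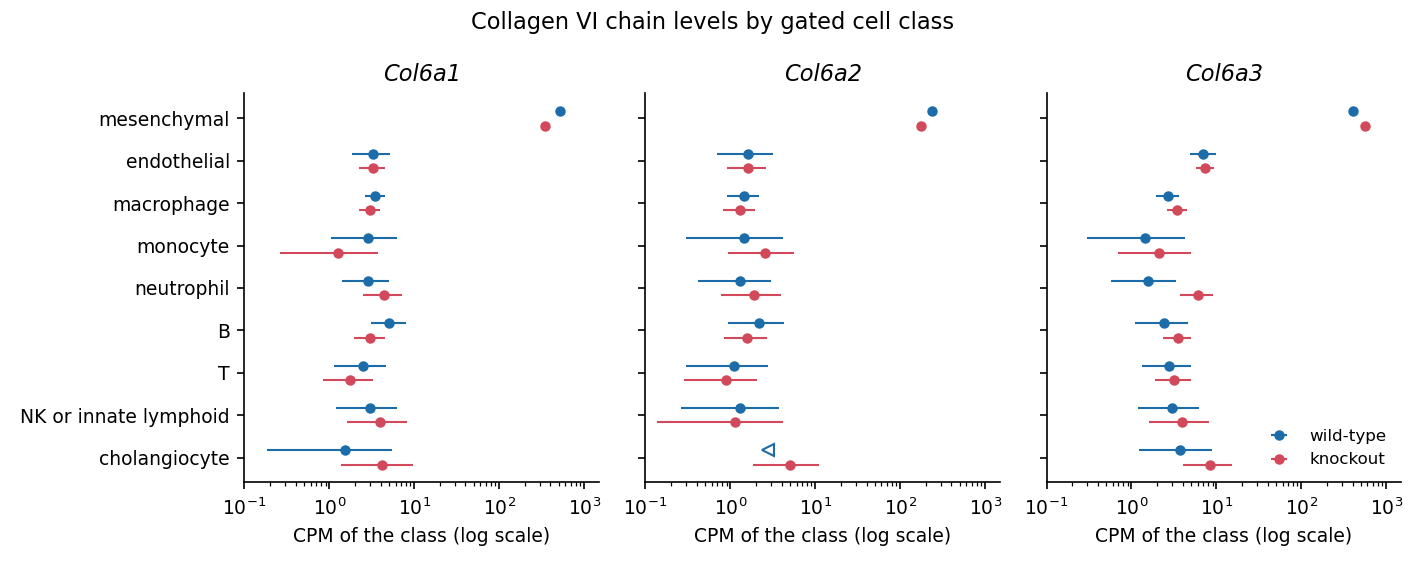
Level of each chain in CPM (log axis) for the gated classes with at least 50 cells in both libraries, with exact Poisson 95% intervals of the UMI sum. The open triangle is the upper bound where no UMI was counted. Mesenchymal cells stand far above every other class plotted, and endothelial Col6a3, at 7.04 and 7.36, is above the level of all gated leukocytes together.

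Endothelial cells held more Col6a3 than the pooled leukocytes. They held it at 7.04 CPM (4.91 to 9.80, 35 UMIs in 28 cells) and 7.36 CPM (5.77 to 9.25, 73 UMIs in 58 cells). All gated leukocytes together held it at 2.43 CPM (1.92 to 3.05) and 3.69 CPM (3.12 to 4.33), so the intervals were apart in both libraries. Single classes were not all apart from them: knockout neutrophils had Col6a3 at 5.99 CPM (3.76 to 9.07) and knockout cholangiocyte-gated cells at 8.34 CPM (10 UMIs, up to 15.3). Endothelial Col6a1 (3.22 and 3.22 CPM) and Col6a2 (1.61 and 1.61 CPM) lay within the leukocytes' intervals. Endothelial cells with a Col6a3 UMI made up 2.88% of 973 and 4.26% of 1361, where the median cell had 4554 and 6420 UMIs. In B cells the shares were 0.903% and 1.80%, at 3450 and 4802 UMIs. After thinning each cell to 2000 UMIs the endothelial shares were 1.37% (0.661 to 2.51) and 0.622% (0.251 to 1.28), against 0.213% and 0.702% in B cells and 0.371% and 1.55% in neutrophils. At that depth the knockout endothelial share did not exceed the background.

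Between the libraries, the mesenchymal chains shifted apart. The log2 ratio of knockout over wild-type CPM was -0.57 (-0.71 to -0.43) for Col6a1 and -0.43 (-0.64 to -0.23) for Col6a2, and 0.46 (0.33 to 0.59) for Col6a3. None of the 3 chains reached a 1.5-fold difference, a size that 31.1% of the 11022 genes with at least 20 UMIs passed in this class, 20.3% upward and 10.7% downward. This count depends on the setting. Col6a1 was over 1.5-fold lower in the Leiden cluster (-0.65), under the median of ratios (-0.72), in cells with at least 10000 UMIs (-0.69) and with no ratio to the next class required (-0.75), and in the last Col6a2 was too (-0.74). The chains' ratios were used to choose them, so nothing is read from this count. Among the 2482 genes with at least 300 UMIs, the median log2 ratio was 0.18, 12.3% of genes lay below Col6a1, 18.5% below Col6a2 and 26.9% above Col6a3. Summed over the 3 chains, the level was 1161 CPM (1113 to 1211) and 1083 CPM (1037 to 1130), a log2 ratio of -0.10 (-0.19 to -0.01). The total differed less than any 1 chain.

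Chain proportions do not depend on how a library is scaled. UMIs tag the 3′ end of a molecule and were not divided by gene length, so each proportion is read only across libraries. Col6a1 made up 44.6% of the 3 chains' UMIs (42.5 to 46.7) in wild-type and 32.2% (30.2 to 34.2) in knockout mesenchymal cells. Col6a2 made up 20.5% (18.8 to 22.2) and 16.3% (14.7 to 17.9). Col6a3 made up 34.9% (32.9 to 37.0) and 51.5% (49.4 to 53.7). The wild-type cells thus held 0.784 Col6a3 UMIs for each Col6a1 UMI, and the knockout cells held 1.60, a log2 difference of 1.03 (0.83 to 1.23). For Col6a3 against Col6a2 the log2 difference was 0.89 (0.65 to 1.14). For Col6a1 against Col6a2 it was -0.14 (-0.39 to 0.12), an interval that includes 0. Of all pairs of genes with at least 300 UMIs, 16.6% lay at least as far apart in log2 ratio as Col6a3 and Col6a1, 23.3% as Col6a3 and Col6a2, and 84.7% at least as far apart as Col6a1 and Col6a2.

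**Figure D2:**
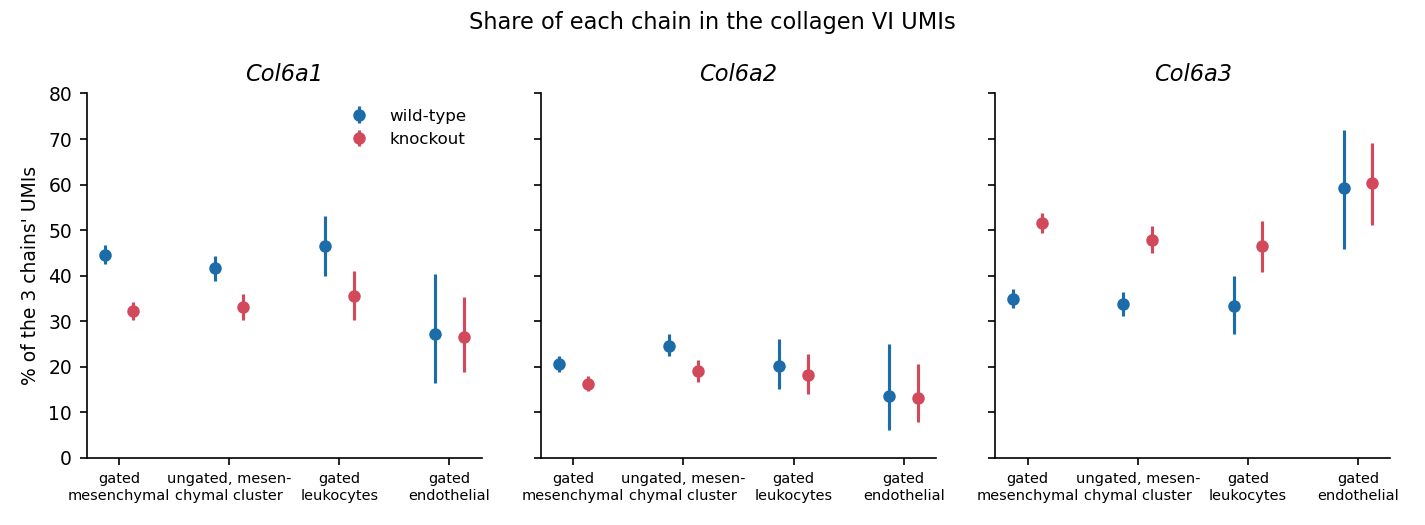
Share of each chain in the summed UMIs of the 3 chains (percent, with Clopper-Pearson 95% intervals) in 4 groups of cells from each library. The Col6a3 share is 34.9% and 51.5% in gated mesenchymal cells, 33.8% and 47.9% in ungated cells of the mesenchymal cluster, 33.3% and 46.4% in leukocytes, and 59.3% and 60.3% in endothelial cells.

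Chain proportions were also taken in cells outside the gate, which come from the same 2 libraries and are not replicates. When all cells were clustered (Leiden method), the mesenchymal cluster held 82 wild-type and 114 knockout cells that the gate had placed in no class. Mesenchymal markers led in 50 and 63 of them, without the required margin over the next class. In them Col6a1 stood at 488 CPM (447 to 532) and 289 CPM (260 to 319), and Col6a2 at 289 CPM (258 to 323) and 166 CPM (144 to 189). Col6a3 stood at 396 CPM (359 to 436) and 418 CPM (383 to 455). The Col6a3 intervals overlapped, so a higher Col6a3 level was not resolved in these cells, and those of Col6a1 and Col6a2 were apart. Col6a3 made up 33.8% (31.1 to 36.5) and 47.9% (45.0 to 50.9) of their chain UMIs. Col6a2 made up 24.6% (22.3 to 27.1) and 19.0% (16.7 to 21.4), and its wild-type share was above that of the gated cells. In gated leukocytes, with 228 and 321 chain UMIs in all, the Col6a3 share was 33.3% (27.2 to 39.9) and 46.4% (40.9 to 52.0). Those UMIs are at the level taken here as free RNA and do not show the chains' proportions in leukocytes. In endothelial cells Col6a3 made up 59.3% (45.7 to 71.9) of 59 and 60.3% (51.04 to 69.1) of 121 chain UMIs, with overlapping intervals.

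Annotated gene length moved with the log2 ratio in these cells. Among genes with at least 300 UMIs, the median log2 ratio was -0.52 for the 513 genes under 10 kb and -0.13 for the 476 genes of 10 to 30 kb, the range of Col6a1 and Col6a2. It was 0.25 for the 715 genes of 30 to 100 kb, the range of Col6a3, and 0.48 for the 778 longer genes. Relative to the median of the 200 genes nearest in length, Col6a1 stood at -0.46, Col6a2 at -0.43 and Col6a3 at 0.18. The difference between Col6a3 and Col6a1 was then 0.64 in place of 1.03, with the same direction. Within its length range, Col6a1 was lower than 87.0% of genes and Col6a3 was higher than 74.7%. Of the nuclear RNAs, Malat1 stood at 14633 and 21477 CPM in the same cells and Neat1, which lay the other way, at 1202 and 1115 CPM. Mitochondrial genes took 2.13% and 2.22% of UMIs. The part of gene length or nuclear RNA in the shift was not tested beyond these values.

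**Figure D3:**
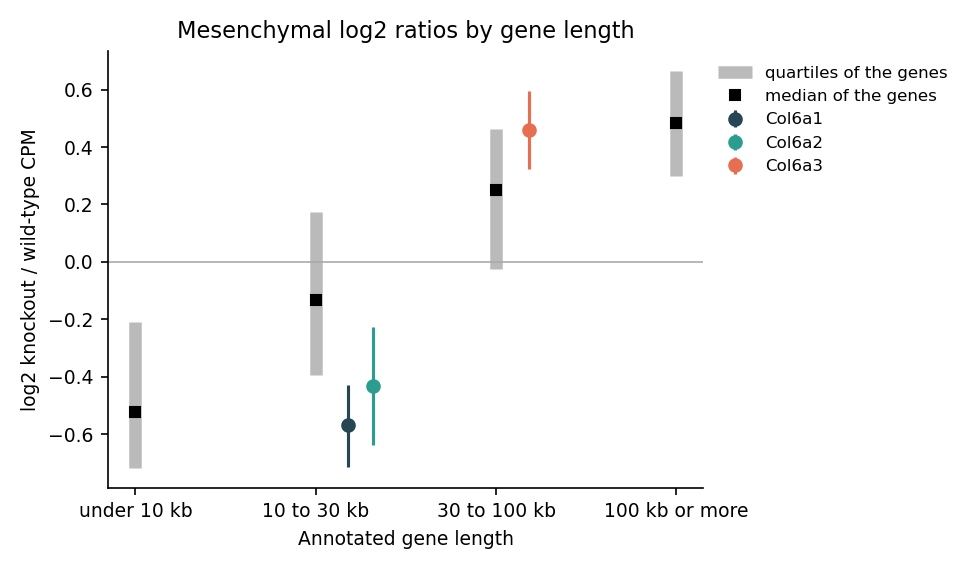
Log2 ratio of knockout over wild-type CPM in gated mesenchymal cells by annotated gene length in kb: squares are medians and grey bars quartiles of genes with at least 300 UMIs, and coloured points are the 3 chains with 95% counting intervals. Col6a1 and Col6a2 lie below the quartile bar of their length range, and Col6a3 lies within the upper part of its own.

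The shift was seen across single cells. Leaving out each library's 5 richest, the log2 ratios were -0.55 for Col6a1, -0.38 for Col6a2 and 0.47 for Col6a3. The median cell had Col6a1 at 409 CPM of its own UMIs (quartiles 202 and 656, highest 2721) in wild-type and 288 (113 and 430, highest 2196) in knockout cells. For Col6a3 the median was 317 (144 and 539, highest 2151) and 424 (188 and 765, highest 2841). For Col6a2 it was 148 (0 and 310) and 130 (0 and 252). The cells of both libraries overlapped over most of their range for every chain. Col6a3 UMIs outnumbered Col6a1 UMIs in 29.5% of the wild-type cells (49 cells, 22.7 to 37.1%) and 61.0% of those from the knockout (89 cells, 52.5 to 68.9%). The reverse held in 91 wild-type cells (54.8%) and 33 knockout cells (22.6%). The 5 richest cells held 14.9% and 12.4% of the chain UMIs.

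**Figure D4:**
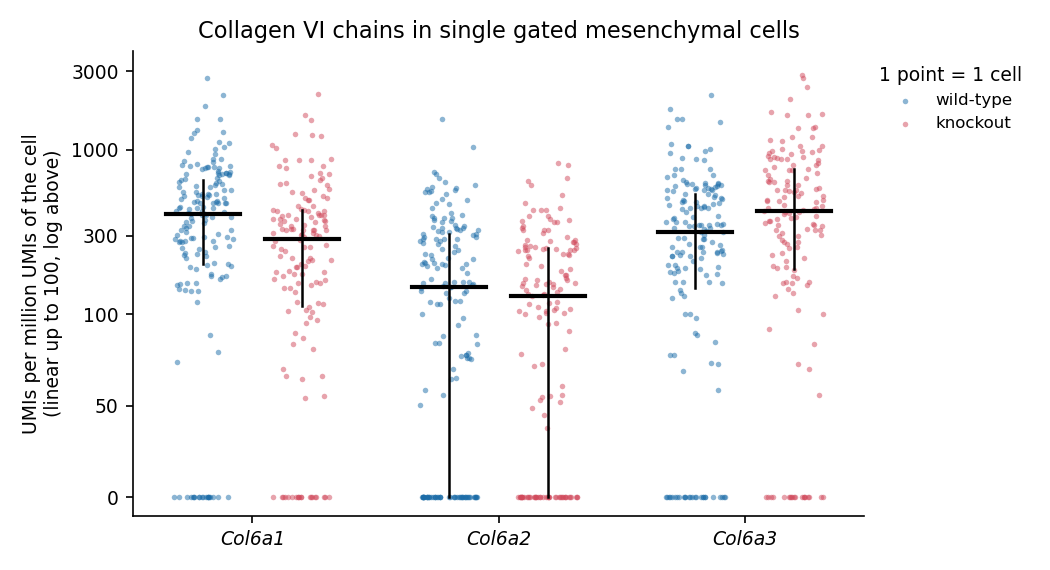
CPM of each gated mesenchymal cell (166 wild-type, 146 knockout), on an axis that is linear up to 100 and logarithmic above; horizontal bars are medians and vertical bars quartiles. Medians are 409 and 288 for Col6a1, 148 and 130 for Col6a2, and 317 and 424 for Col6a3.

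Most mesenchymal cells carried the full set of chains. In the wild type 106 cells (63.9%) held UMIs of all 3 and 8 held none, and in the knockout these were 92 cells (63.0%) and 9. Cells with a Col6a1 UMI made up 88.0% and 86.3%, with a Col6a2 UMI 70.5% and 70.5%, and with a Col6a3 UMI 84.3% and 87.0%. The median cell had 12010.5 and 12728.5 UMIs. After thinning to 2000 UMIs, which left out 18 and 11 cells, the shares were 58.8% (50.4 to 66.8) and 48.1% (39.5 to 56.9) for Col6a1. They were 47.3% (39.0 to 55.7) and 57.8% (49.0 to 66.2) for Col6a3. These thinned intervals overlapped between the libraries. For Col6a2 they were 33.8% (26.2 to 42.0) and 25.2% (18.1 to 33.4). B cells after thinning had a Col6a1 UMI in 0.958% and 0.638% of cells. Across the thinned cells of 1 library (148 and 135), counts of different chains were weakly related, with Pearson's r from 0.11 to 0.16 (wild type) and from 0.14 to 0.28 (knockout). The points share a library and a depth, and at counts this sparse nothing is read from r.

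Stellate-scored cells made up 159 of the 166 wild-type and 139 of the 146 knockout cells in the gate, so their values could differ little from it. In stellate-scored cells alone the values were close to those of the whole gate. Col6a1 stood at 514 and 348 CPM, Col6a2 at 226 and 175 CPM, and Col6a3 at 404 and 558 CPM. Portal fibroblast-scored cells had Col6a3 at 340 CPM (205 to 531, 4 cells) and 957 CPM (536 to 1579, 2 cells), and Col6a1 at 393 and 510 CPM. So few cells give no comparison.

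Transcripts of the α4, α5 and α6 chains were scarce. Of Col6a4, Col6a5 and Col6a6, Col6a5 and Col6a6 had at least 20 UMIs. Both were more than 1.5-fold higher in the knockout library, beside 20.3% of all genes. Col6a5 had 7 UMIs in 5 wild-type cells (3.72 CPM) and 57 UMIs in 15 knockout cells (29.0 CPM), a log2 ratio of 2.79 (1.83 to 4.34). Col6a6 had 10 UMIs in 8 cells (5.31 CPM) and 33 UMIs in 13 cells (16.8 CPM), a log2 ratio of 1.56 (0.60 to 2.84). The 5 richest knockout cells for each gene held 34 of the Col6a5 and 25 of the Col6a6 UMIs, and the log2 ratio of Col6a5 was 1.52 in the Leiden cluster and 1.13 after thinning. Without the 5 richest cells of each library, 0 and 23 Col6a5 UMIs and 3 and 8 Col6a6 UMIs were left. The wild-type 0 was fixed in advance, because only 5 wild-type cells held Col6a5. Only 8 held Col6a6, so nothing is read from what was left. Both genes are over 100 kb long, and relative to genes of like length their log2 ratios were 2.38 and 1.09. Col6a4 had 1 and 2 UMIs.

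Of the 8 receptor genes, 6 had enough UMIs. Of these, 2 were at least 1.5-fold higher in the knockout library and 0 were lower, beside 20.3% and 10.7% of all 11022 genes. Their median log2 ratio was 0.32, beside 0.15 over all genes. Scaling by the median of ratios moves every log2 ratio down by a shift of its own, 0.151, which puts Itgb1, Col4a1, Bmp1 and Col1a2 below 0 in what follows. Antxr1, an anthrax toxin receptor that binds the collagen VI α3 tail, stood at 188 and 321 CPM (0.77, 0.59 to 0.97). Its relative Antxr2, which takes collagen VI into the cell, stood at 66.4 and 91.9 CPM (0.47, 0.13 to 0.81). The collagen-binding integrin gene Itga1 stood at 630 and 710 CPM (0.17, 0.06 to 0.29) and its partner Itgb1 at 475 and 517 CPM (0.12, -0.01 to 0.25). Itga3 had 6 and 21 UMIs (1.59, 0.39 to 3.34). Itga2, the only one of the 6 below 0, had 40 and 31 UMIs (-0.42, -1.16 to 0.28). Thinned to equal depth, the Itga2 log2 ratio was 0.81, a value from few UMIs. The interval at full depth includes 0, so the direction of Itga2 was not settled. These genes are mostly long, and relative to genes of like length the list's median was -0.05, with 2 of the 6 above 0. Antxr1 was then at 0.27, Itga1 at -0.31, Itga3 at 1.49 and Itga2 at -0.82. Itga3 was thus still over 1.5-fold higher, and Itga2 was over 1.5-fold lower.

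Among the 6 matrix partners, 2 were at least 1.5-fold lower in the knockout library and 0 were higher, beside 10.7% and 20.3% of all genes. The median log2 ratio was 0.04. The lower members were the small proteoglycans that tie collagen VI to other fibres. Dcn (decorin) stood at 11011 and 6228 CPM (-0.82, -0.85 to -0.79), and Bgn (biglycan) at 2937 and 1943 CPM (-0.60, -0.66 to -0.54). Fn1 (fibronectin) stood at 527 and 696 CPM (0.40, 0.28 to 0.52), but its log2 ratio was -0.35 in the mesenchymal Leiden cluster, the alternative to the gate. The basement membrane collagen genes Col4a1 (0.13, 0.01 to 0.25) and Col4a2 (0.30, 0.16 to 0.45) lay near the median of all genes, and Hspg2, perlecan, was at -0.05 (-0.38 to 0.29). Relative to genes of like length, Dcn stood at -0.96 and Bgn at -0.32.

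Genes for collagen folding, modification and processing went both ways. Of 12, 11 had enough UMIs. Of these, 2 were at least 1.5-fold higher and 1 was at least 1.5-fold lower, counts near the 20.3% and 10.7% of all genes. Their median log2 ratio was 0.05. Plod2, a lysyl hydroxylase, stood at 156 and 308 CPM (0.98, 0.78 to 1.19), and the prolyl hydroxylase subunit P4ha1 at 242 and 372 CPM (0.62, 0.45 to 0.79), which was within 1.5-fold under the median of ratios. Plod3, whose glycosyltransferase activity collagen VI needs for secretion, had 54 and 33 UMIs (-0.76, -1.45 to -0.12). Thinned to equal depth, the Plod3 log2 ratio was 0.62. Thinning leaves few of these UMIs, so the thinned value does not settle the direction. Serpinh1, the collagen chaperone, stood at 592 and 565 CPM (-0.07, -0.19 to 0.05), and Bmp1, a protease known to release endotrophin, at 45.2 and 46.7 CPM (0.05, -0.39 to 0.49).

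Of the 6 fibrillar collagen genes, 3 were at least 1.5-fold higher in the knockout library, beside 20.3% of all genes, 0 were lower and the median log2 ratio was 0.57. Col5a1 stood at 156 and 244 CPM (0.65, 0.43 to 0.86), Col5a2 at 284 and 439 CPM (0.63, 0.47 to 0.79), and Col5a3 had 6 and 16 UMIs (1.22, -0.08 to 2.99). Under the median of ratios Col5a1 and Col5a2 were within 1.5-fold and Col5a3 alone was past it, and in the Leiden cluster Col5a1 stood at 0.49, also within 1.5-fold. Col1a1 stood at 1001 and 1425 CPM (0.51, 0.42 to 0.59) and Col3a1 at 1637 and 2129 CPM (0.38, 0.31 to 0.45). Col1a2 stood at 1181 and 1285 CPM (0.12, 0.04 to 0.20) and was at -0.07 in the Leiden cluster. Relative to genes of like length the list's median was 0.22. Col1a1 (0.65) and Col5a3 (1.03) were then past 1.5-fold, and Col5a1 (0.16) and Col5a2 (0.20) were within it. Dissociation stress genes, which respond to tissue digestion, had a median log2 ratio of 0.09. Of the 12, 1 (Dnajb1) was at least 1.5-fold higher and 0 were lower, beside 20.3% and 10.7% of all genes. Dnajb1 was within 1.5-fold under the median of ratios and in the Leiden cluster. Under the median of ratios Ier2 was over 1.5-fold lower. Relative to genes of like length the list's median was 0.53, with 11 of 12 above 0 and 5 at least 1.5-fold higher. Their part in the collagen VI values was not tested.

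**Figure D5:**
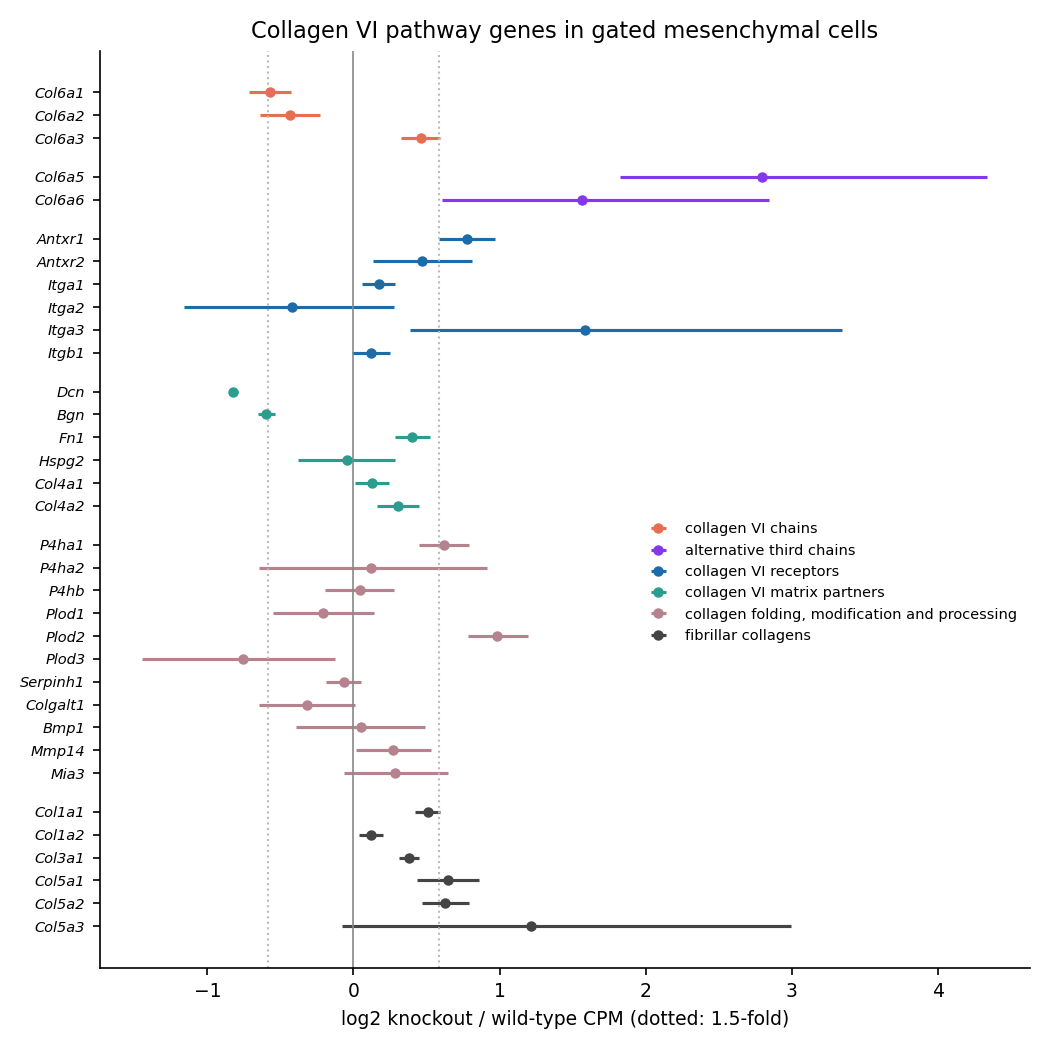
Log2 ratio of knockout over wild-type CPM in gated mesenchymal cells for the 3 chains and the pathway genes with at least 20 UMIs, with exact conditional 95% counting intervals; dotted lines mark 1.5-fold. Col6a1 and Col6a2 lie on the side of Dcn and Bgn, and Col6a3 on that of the 6 fibrillar collagens.

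The genes whose levels followed the chains most closely were sought over 20 sums of a class in a library with at least 50 cells, by Pearson's r with the mean log2(CPM + 1) of the 3 chains. Among 12815 genes outside the marker panels, the closest were Col1a2 (r = 0.986), Ddr2, a collagen receptor kinase (0.983), Col14a1 (0.979), Daam2 (0.978) and Gdf2 (0.978). The points share libraries, and the mesenchymal sums stand apart from all others, so r mainly reflects high levels in that class. Between the libraries these genes did not move as one: Daam2 stood at 108 and 186 CPM (log2 ratio 0.78, 0.53 to 1.04), and Gdf2, which encodes the ligand BMP9, at 242 and 157 CPM (-0.62, -0.83 to -0.41). Col14a1 stood at 1038 and 1256 CPM (0.28, 0.19 to 0.36).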

How the data were processed

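The deposited matrices hold raw counts of UMIs per gene and cell barcode. They were made with Cell Ranger, version 7.0.1 per the file headers and 3.1.0 per the submitters' processing notes, which also name Seurat and build mm10. The labels' protocols name the 10x Chromium 3′ v3 kit. Whether intronic reads were counted and how barcodes were filtered is not given in the sources used here.

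Barcodes under 200 genes or over 20% mitochondrial counts were dropped (413 wild-type, 149 knockout). Scrublet, run through scanpy 1.11.5, gave doublet scores. Its automatic threshold marked 1 wild-type cell (0.0088%) and 727 knockout cells (5.71%), so it had not worked in the wild type. In both libraries the highest scores were removed at 0.8% per 1000 cells instead, 1034 wild-type and 1295 knockout cells. This left 10336 and 11428 cells, of which 34.3% and 34.6% entered no class. UMIs were summed per class and library. Log2 ratios have 1 count added to each sum. No p-value is given, since each genotype has 1 library. Poisson intervals are exact, shares have Clopper-Pearson intervals, ratios have exact conditional intervals, and a count of 0 is given with the limit that 3 counts set.

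The members, the gene lists (α4 to α6 chains, receptors, matrix partners, folding and processing, fibrillar collagens, dissociation stress), the markers and the alternatives were chosen with earlier results of these data known. The rule for naming genes took members of these lists and the 5 most alike. Leiden clusters (leidenalg 0.10.2, resolution 1, 2000 variable genes, 30 components, 15 neighbours) served as an alternative to the gate. Positions and lengths come from GENCODE M21 (GRCm38), which holds 99.6% of the matrices' identifiers. Mesenchymal counts were also simulated with Poisson error alone, the error that the ratio intervals assume, and with 200 genes changed 2-fold. In that simulation 96.0% of 11022 intervals held the true ratio. It checked the calculation only and held no spread between cells, animals or libraries.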

Additional observations from a re-analysis of the deposited data

How the results depend on the processing

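Each chain kept its direction in 13 alternatives: Col6a1 lay between -0.75 and -0.22, Col6a2 between -0.74 and -0.30, and Col6a3 between 0.18 and 0.51. Of these alternatives, the gate of at least 2 markers took the same 166 and 146 cells as the main gate and could move nothing. The gate of at least 5 markers took 164 and 142 cells, so it could move little. Col6a3 against Col6a1 lay between 0.64 and 1.07 and against Col6a2 between 0.60 and 1.11. Thinning each cell to 2000 UMIs gave Col6a1 -0.22 (-0.60 to 0.15) and Col6a2 -0.58 (-1.22 to 0.0066), intervals that then included 0, Col6a1 against Col6a2 0.37, Col6a3 against Col6a1 0.74 and a wild-type Col6a3 share of 37.1%. Scaling by the median of ratios gave Col6a1 -0.72 and Col6a3 0.31, and the Leiden cluster gave Col6a3 0.31. Added after seeing the data, gating with no ratio to the next class gave -0.75, -0.74 and 0.20. Also added then, values relative to genes of like length were 0.18 for Col6a3, 0.64 for Col6a3 against Col6a1 and 0.60 against Col6a2. Cells with at least 10000 UMIs, also added then, moved none of these values beyond its counting interval.

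List medians were less stable. In the Leiden cluster they were 0.68 (receptors), -0.31 (matrix partners) and 0.40 (fibrillar). After thinning they were -0.29 (partners), 0.70 (fibrillar) and -0.062 (stress, reversed), and under the median of ratios -0.11, 0.42 and -0.061 (stress, reversed). Relative to genes of like length they were -0.053 (receptors, reversed), -0.30 (partners), 0.22 (fibrillar) and 0.53 (stress). The cause of these changes was not tested. No paired analysis was possible because each genotype has 1 library.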

Other observations

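The relation between annotated gene length and the knockout over wild-type log2 ratio was not limited to mesenchymal cells. For genes with at least 300 UMIs in the class, the median log2 ratio of genes under 10 kb was -0.46 in endothelial, -0.21 in macrophage, -0.28 in B and -0.23 in T cells. For genes of 100 kb or more it was 0.31, 0.42, 0.27 and 0.29.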
